A study of Rattus norvegicus with 24 samples.

Results

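The livers compared here came from 12 male Wistar rats that all ate a diet low in copper. In 6 of them 30% of the diet was sucrose, and in the other 6 it was 10%. The members were chosen by their labels alone, and they are 12 of the 24 livers in the study, each hybridised to its own single-colour array. Both diets held less than 0.3 mg copper per kg, and starch and dextrin made up the difference in carbohydrate. The rats had eaten standard pellets until 6 months of age, ate the purified diet for 12 weeks and were 9 months old at the end. The other 12 rats ate 30% or 10% sucrose with 125 mg copper per kg (adequate copper). They enter the fit of all 24 arrays, and the sucrose difference at low copper was tested against theirs. The labels name each rat, so a replicate is 1 animal.

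Sucrose is split into glucose and fructose, and the liver takes up most of the fructose. Ketohexokinase starts the route that feeds fructose into glycolysis below its main control point, and the carbon can leave as glycogen, glucose, lactate or fatty acids. The transcription factors ChREBP (gene Mlxipl), which senses sugar phosphates, and SREBP-1c (gene Srebf1), which answers to insulin, are the known activators of the fat-making enzymes. Copper is the cofactor of cytochrome oxidase, of copper-zinc superoxide dismutase and of ceruloplasmin, and copper-deficient rats fed sucrose or fructose are a long-used model of fatty liver.

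Each value below is a log2 level, the signal of a gene's brightest kept probe minus the 75th percentile of its array, so levels of different genes are not comparable with each other. A difference is the mean of the rats on 30% sucrose minus the mean of the rats on 10% sucrose, with its standard error from limma and a p adjusted over all 18641 genes by the Benjamini-Hochberg method. The arrays lay on 3 slides, and no slide held both diets. All 6 rats on 30% sucrose were on slide 1, rats 1 to 4 on 10% sucrose were on slide 2, and rats 5 and 6 on 10% sucrose were on slide 3. Slide and diet therefore cannot be told apart by direct comparison, and differences are also given against the rats of slide 2 and of slide 3 taken alone. A fit with slide as a fixed block was possible only because some diets lay on more than 1 slide. Adequate copper with 30% sucrose had 2 rats on slide 1 and 4 on slide 2. Low copper with 10% sucrose had 4 rats on slide 2 and 2 on slide 3. In that fit the difference at low copper links slides 1 and 2 only through the adequate copper rats on 30% sucrose. Of those rats 2 lay on slide 1. Rats 5 and 6 on 10% sucrose enter the spread of that fit but not its difference at low copper. So few rats link the slides that the standard errors of that fit were larger. They were 0.96 against 0.51 for Fasn and 0.41 against 0.23 for Pklr. Differences with slide as a block are given without their errors, and a change of sign under it is no test.

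Hepatocyte markers were strongly present in both diets with all 25 measured members of that list well above background on all 12 arrays. On the low copper arrays between 62.7% and 71.0% of probes were well above background. The scaling value, each array's 75th percentile, was 609 to 1284 intensity units on 30% sucrose and 596 to 883 on 10% sucrose, and the number of arrays limits the precision. The first principal component of the 12 livers, 31.4% of the variance, did not separate the diets but did separate the slides of the rats on 10% sucrose. Rats on 30% sucrose lay between -7.5 and 47.1 on it, while those on 10% sucrose lay between -52.6 and -28.3 on slide 2 and at 16.6 and 46.5 on slide 3. Rat 2 on 10% sucrose stood apart on the second component at -63.1.

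**Figure D1:**
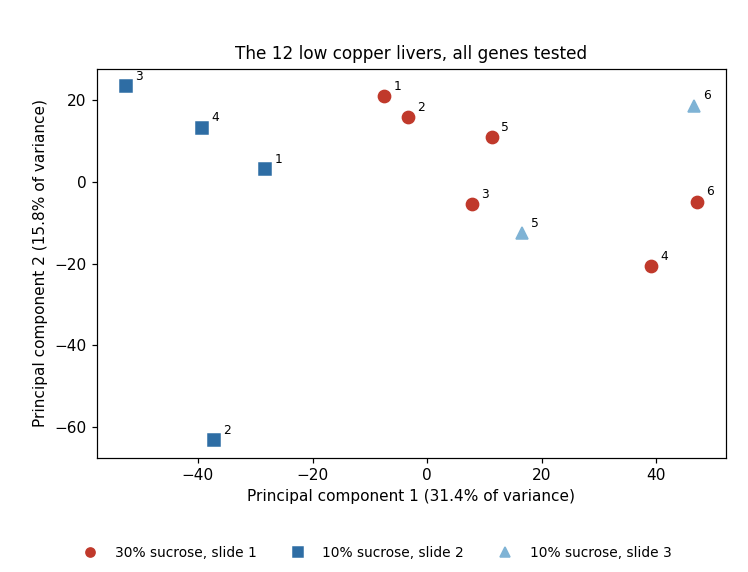
Principal components 1 and 2 of the log2 levels of 18641 genes in the 12 low copper livers, 1 numbered point per rat, with colour and shape giving diet and slide. The 6 rats on 30% sucrose sit between the 4 rats on 10% sucrose from slide 2 on the left and overlap the 2 from slide 3 on the right.

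No gene passed the threshold between 30% and 10% sucrose at low copper in the fit of all 24 arrays (0 of 18641, 0%, limma, adjusted p under 0.05), and the lowest adjusted p was 0.275. At an unadjusted p under 0.05 there were 1786 genes (9.58%), of which 504 (2.7%) were higher and 1282 (6.88%) lower on 30% sucrose. The levels of the 2 diets did not overlap in 39 genes (0.209%) that were higher and 20 (0.107%) that were lower. A difference above 0 was found in 7546 genes (40.5%), and the median over all genes was -0.05. Scaling each array by its median instead moved that median to 0.05, so small list medians are read against it. In the fit with slide as a block, 6261 of the 18641 genes were above 0 and their median was -0.16. List medians of that fit are read against that value.

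Leaving out rats changed this count more than any scaling did. Without rat 6 on 10% sucrose 41 genes passed (4 higher, 0.0215%, and 37 lower, 0.198%), and without rat 5 on 10% sucrose 2 passed. Without both of these rats, which are those of slide 3, 1503 genes passed, 54 higher (0.29%) and 1449 lower (7.77%). Of the list genes named below, Gclc was called higher without them, and Slc7a11, Chac1, Cxcr2, Csf1r, Cd4, Gzmb, Tgfb2, Cyp2b15, Sult5a1, Or7g23 and Or4f60b were called lower. Of the lead genes described next, 9 of the 12 that were higher and 12 of the 12 that were lower were called there too, in the same direction. Those genes were picked for their low p over these same rats, so the repeat calls are no independent support for them. Without the 4 rats of slide 2 no gene passed and 862 had an unadjusted p under 0.05. The rats on 10% sucrose differed among themselves by slide as well: in 24.1% of genes the 2 slides' means lay more than 0.5 apart.

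The genes nearest the threshold among those higher on 30% sucrose were small in size, at 1.29 to 1.72-fold for 11 of the 12. Nudcd2, which encodes a protein with a NudC domain, had levels of -1.91, -1.70 and -1.30 (lowest, median and highest) on 30% sucrose, against -2.68, -2.17 and -2.04 on 10% sucrose. The diets did not overlap, and the difference of 0.59 ± 0.12 (SE, adjusted p 0.275 by limma) was 0.58 against the rats of slide 2, 0.59 against those of slide 3 and 0.56 with slide as a block. Ptma, the gene of prothymosin alpha, a small acidic protein of the nucleus, had 2.19, 2.31 and 2.42 on 30% sucrose, against 1.37, 1.74 and 2.14 on 10% sucrose. Its diets did not overlap either, and its difference of 0.56 ± 0.13 (adjusted p 0.365 by limma) was 0.36 with slide as a block. Tpmt, the methyltransferase that inactivates thiopurine drugs, lay between 2.89 and 3.11 on 30% sucrose and between 2.40 and 2.88 on 10% sucrose, again without overlap. Its difference of 0.38 ± 0.11 was 0.03 with slide as a block.

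The remaining lead genes of that direction include Agtpbp1, an enzyme that trims glutamates from tubulin (0.60 ± 0.16), and Tpgs2, a subunit of the complex that adds them (0.37 ± 0.10). C7h8orf76 was 0.47 ± 0.11 higher, and its diets did not overlap. The transcript ENSRNOT00000041800 was well above background in 5 of 6 rats on 30% sucrose and in 1 of 6 on 10% sucrose, so its fitted difference of 2.73 ± 0.75 rests on a level near background on 10% sucrose.

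The probes of 3 of the 12 lead entries share sequence. RGD1565030, ENSRNOT00000008592 and LOC689442 are named by the array only, and their 60-base probes are printed here with the run of 21 bases that all of them hold in capitals.
RGD1565030: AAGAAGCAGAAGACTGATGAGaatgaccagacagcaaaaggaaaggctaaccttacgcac
ENSRNOT00000008592: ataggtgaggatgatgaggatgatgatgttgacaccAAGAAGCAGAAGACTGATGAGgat
LOC689442: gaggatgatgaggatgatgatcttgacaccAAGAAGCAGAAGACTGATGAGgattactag
In rn4, the build of the array files, they lie at chr17:34472160-34472218 on the minus strand, chr3:57260745-57260804 on the plus strand and chr5:32698577-32698636 on the minus strand. No other probe among the 30367 of the array holds that run, on either strand. Their differences were 0.63 ± 0.13, 0.66 ± 0.15 and 0.53 ± 0.15, and one transcript that binds all 3 cannot be told apart from 3 transcripts that differ alike. The Ptma probe shares no run of 12 bases with them, but a probe covers only 60 bases of its transcript. Whether the 3 probes bind Ptma transcripts was not tested, so these lead entries need not be separate genes. A further lead probe with no gene name, A_64_P132657 at chr5:59945696-59945755 in rn4, was 0.64 ± 0.14 higher without overlap. Whether it too binds Ptma transcripts was not tested. The unnamed probe A_64_P155364 was 0.78 ± 0.18 higher, and rat 6 on 10% sucrose stood at -1.03, far above the next rat of that diet at -1.97.

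Among the genes lower on 30% sucrose, Trpv4 was the one lead gene with a current gene name that was well above background in all 12 rats and showed no overlap. Trpv4, a calcium-permeable cation channel that answers to swelling and warmth, had levels of -4.20, -4.09 and -3.98 on 30% sucrose, against -3.88, -2.94 and -2.52 on 10% sucrose. The rats on 30% sucrose lay close together. Rat 6 on 10% sucrose, at -3.88, was the only one of its diet near them. The difference was -1.09 ± 0.22 (2.13-fold, 95% interval -1.55 to -0.63, adjusted p 0.275 by limma), and it was -1.20 with slide as a block. Without rat 6 on 10% sucrose it was -1.27 and passed the threshold (adjusted p 0.0133 by limma), and without both rats of slide 3 it was -1.19 (adjusted p 0.0029).

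Most other lead genes of that direction were dim, and several were not well above background in any rat on 30% sucrose. For those only a bound on the fold between the 2 diet means is given, and it carries no sampling error. It was computed from the mean of the brighter diet against the lowest signal well above background on each array of the dimmer one, or the probe's own where that is higher. Foxd3, a transcription factor of neural crest, had a bound of 2.31-fold lower (adjusted p 0.35 by limma). It was well above background in 0 of 6 rats on 30% sucrose and 5 of 6 on 10% sucrose. The bounds were 2.24 for Lacc1, an enzyme of purine nucleosides, and 2.03 for Sucnr1, the receptor for succinate. They were 1.76 for Ctsll3, a cathepsin L-like gene, and 2.19 for the unnamed probe A_44_P929530. The 95% intervals of the fitted log2 differences reached -0.75 for Foxd3, -0.64 for Lacc1 and -0.58 for Sucnr1. Against the rats of slide 3 alone the log2 differences were -0.65 for Foxd3, -0.80 for Lacc1 and -0.57 for Sucnr1. For Ctsll3 and A_44_P929530 they were -0.46 and -1.33. Arrdc4, an alpha-arrestin (-1.01 ± 0.23), Sncaip, a partner of alpha-synuclein (-0.84 ± 0.19), C9h6orf141 (-1.21 ± 0.26) and Ermap, a membrane protein of erythroblasts (-0.67 ± 0.16), were well above background in some rats of both diets. So were the unnamed probes A_64_P061758 (-1.49 ± 0.28) and A_64_P090994 (-0.93 ± 0.22). On 30% sucrose that held in 1 of 6 rats for Arrdc4, C9h6orf141 and A_64_P090994, in 2 for A_64_P061758 and in 3 for Sncaip, so most of their means on 30% sucrose lie near background. Against the rats of slide 3 alone, the differences of these 6 lay between -0.87 (A_64_P061758) and -0.18 (Ermap). Of the 6, only Ermap was well above background in all 12 rats. Without rat 5 on 10% sucrose Ctsll3 was called lower (adjusted p 0.0238 by limma).

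The fat-making genes leaned higher on 30% sucrose without passing the test. In the lipogenesis list, 24 of 25 members had a probe on the array, and all 24 passed the filter on dim probes. Of the 24, 20 were above 0 and the median difference was 0.24. Over all genes tested 40.5% were above 0 and the median was -0.05. No member was called, and 2 (Pklr and Srebf1) had an unadjusted p under 0.05. The list's median was 0.27 against the rats of slide 2, 0.07 against those of slide 3 and -0.03 with slide as a block. Over all genes the median with that block was -0.16.

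Fasn, fatty acid synthase, had levels of 4.25, 5.42 and 6.07 on 30% sucrose, against 2.98, 4.21 and 5.94 on 10% sucrose. The diets overlapped: rats 2 and 5 on 10% sucrose, 1 on each slide, lay at 5.69 and 5.94, among those on 30% sucrose. The difference of 0.91 ± 0.51 (1.88-fold, 95% interval -0.14 to 1.96, adjusted p 0.558 by limma) was 0.96 against slide 2 and 0.80 against slide 3, but 0.02 with slide as a block. Acly, which makes the acetyl-CoA that Fasn uses, had a median of 5.62 and a highest level of 6.10 on 30% sucrose, against 4.67 and 5.89 on 10% sucrose. The diets overlapped, and the difference was 0.64 ± 0.37, and -0.39 with slide as a block. Me1, malic enzyme, a source of NADPH for fat synthesis, differed by 0.68 ± 0.37, by 0.95 against the rats of slide 2 and by 0.13 against those of slide 3.

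Srebf1, the gene of SREBP-1, had 3.32, 3.60 and 3.95 on 30% sucrose, against 2.67, 3.20 and 3.46 on 10% sucrose. 4 of the 6 rats on 30% sucrose lay above every rat on 10% sucrose, and the difference was 0.47 ± 0.20 (adjusted p 0.495 by limma), or 0.12 with slide as a block. Mlxipl, the gene of ChREBP, differed by 0.08 ± 0.15, with a 95% interval of -0.24 to 0.40. Acaca, acetyl-CoA carboxylase, differed by 0.42 ± 0.26, Scd, the stearoyl-CoA desaturase, by 0.46 ± 0.35, Elovl6, a fatty acid elongase, by 0.53 ± 0.50, and Thrsp, a regulator of fat synthesis, by 0.25 ± 0.36. The interval of each of these 4 includes 0 and reaches 0.97 or more. With slide as a block they were -0.19, -0.35, -0.48 and -0.72.

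**Figure D2:**
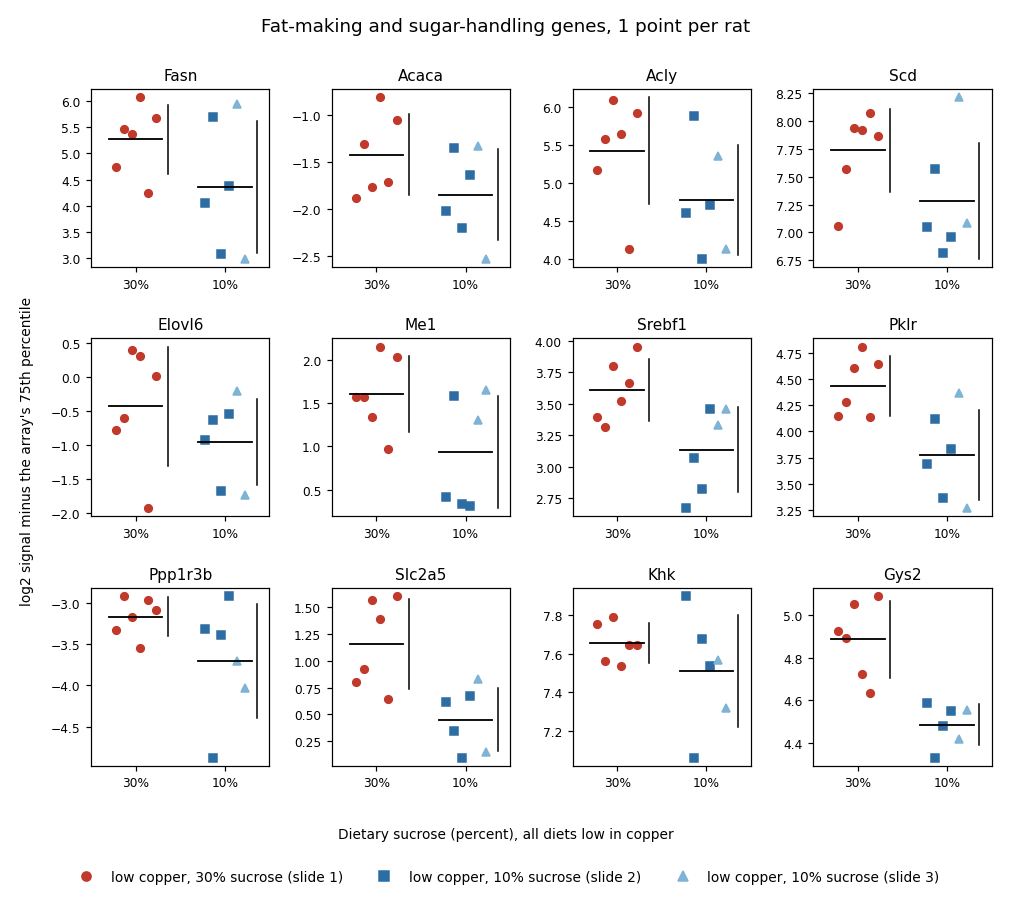
Log2 level (signal minus the array's 75th percentile) of 12 fat-making and sugar-handling genes, 1 point per rat, with 30% sucrose left of 10% sucrose and colour and shape giving the slide. The horizontal line is the mean and the vertical line spans 1 SD on each side (n = 6 each). Of the 12 genes only Gys2 shows no overlap of the diets.

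Pklr, the liver pyruvate kinase, is the textbook gene driven by ChREBP, and its promoter is printed for the site through which that is known to happen. The 250 bases before its start, taken from RefSeq (GRCr8, chr2:176841014-176841263, plus strand), hold 1 match to a pair of E-box-like elements, CACGNG and CNCGTG with 5 bases between them, shown in capitals.
Pklr: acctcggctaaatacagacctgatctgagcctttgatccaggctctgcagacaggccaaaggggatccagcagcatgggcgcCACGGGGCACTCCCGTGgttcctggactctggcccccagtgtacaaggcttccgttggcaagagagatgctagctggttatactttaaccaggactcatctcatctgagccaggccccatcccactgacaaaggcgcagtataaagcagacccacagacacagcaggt
The motif, searched on both strands, occurred in 11 of 33469 rat promoters of 300 bases (0.033%). Of the 59 measured genes of the lipogenesis and the fructose and glucose lists, 48 had a promoter in that table, and Pklr alone held a match. Because Pklr was chosen for its known site, its match is not a result. Sites outside these 300 bases or with another spacing were not searched, so the other genes may hold them. Pklr had levels of 4.14, 4.44 and 4.81 on 30% sucrose, against 3.26, 3.76 and 4.37 on 10% sucrose. All 6 rats on 30% sucrose lay above the median of the rats on 10% sucrose, and 3 lay above all of them. The difference was 0.66 ± 0.23 (1.58-fold, 95% interval 0.18 to 1.15, adjusted p 0.461 by limma), 0.68 against slide 2 and 0.62 against slide 3, but -0.04 with slide as a block.

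The fructose and glucose genes showed a weaker lean of the same kind. Of 38 members 37 were measured, 26 of them were above 0, and the median was 0.13, with none called and 5 at an unadjusted p under 0.05, all higher. The slide block turned the median to -0.16 and left 10 above 0, but the median over all genes with that block was -0.16 too. Slc2a5, the gene of the fructose transporter GLUT5, had 0.64, 1.16 and 1.61 on 30% sucrose, against 0.09, 0.48 and 0.83 on 10% sucrose. 4 of 6 rats on 30% sucrose exceeded every rat on 10% sucrose, and the difference was 0.71 ± 0.29 (1.63-fold, adjusted p 0.483 by limma), or 0.08 with slide as a block.

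Khk, ketohexokinase, which acts on fructose after entry, differed by 0.14 ± 0.13, with a 95% interval of -0.13 to 0.42, and Slc2a2 (GLUT2), the main sugar transporter of hepatocytes, by 0.10 ± 0.14 (-0.18 to 0.39). Both intervals include 0. Fitted with the slide block the differences were -0.36 for Khk and -0.25 for Slc2a2.

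In glycogen metabolism one gene had no overlap between diets. Gys2, liver glycogen synthase, had 4.63, 4.91 and 5.09 on 30% sucrose, against 4.33, 4.52 and 4.59 on 10% sucrose. No rat of one diet reached the other, and the difference was 0.40 ± 0.12 (1.32-fold, adjusted p 0.422 by limma), the same against either slide and 0.20 with slide as a block. Ppp1r3b, which brings a phosphatase to glycogen, was 0.54 ± 0.24 higher, but 0.0014 with slide as a block, and 0.305 at the lowest when 1 rat was left out. G6pc1, which releases glucose, was -0.32 ± 0.26 apart and Pck1, of gluconeogenesis, 0.12 ± 0.26. Txnip, a sugar-responsive gene, differed by -0.30 ± 0.22 and Fgf21, a hormone the liver secretes on sugar or fasting, by -0.18 ± 0.39, or by 1.32 with slide as a block.

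In the fatty acid oxidation list 15 of 39 measured members (of 39) were above 0, with a median of -0.04, and in the lipid droplet list 8 of 17 measured (of 19), with a median of -0.01. No member of either was called. Cyp4a2, an omega-hydroxylase of fatty acids, had 1.04, 3.25 and 4.12 on 30% sucrose, against 2.37, 4.96 and 5.67 on 10% sucrose. The diets overlapped in 4 of the 6 rats on 30% sucrose, and the difference of -1.37 ± 0.67 (adjusted p 0.521 by limma) was -0.29 with slide as a block.

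Acot1, an acyl-CoA thioesterase, differed by -0.66 ± 0.26, and Crat, carnitine acetyltransferase, by -0.59 ± 0.31, which the slide block turned to 0.45. Cpt1a, which controls entry of fatty acids into mitochondria, differed by -0.26 ± 0.26, and by 0.32 with that block. On the lipid droplet, Plin2, its main coat protein in liver, differed by -0.32 ± 0.22 and Plin5, which ties droplets to mitochondria, by -0.40 ± 0.22. Cidea, which fuses droplets, differed by -0.65 ± 0.33, Pnpla2, the triglyceride lipase ATGL, by -0.35 ± 0.17, and Fitm1, of droplet formation, by -0.40 ± 0.19.

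Genes that export lipid were split. Of 26 members of the lipoprotein list 23 were measured and 7 were above 0, with a median of -0.05 and none called. Mttp, which loads lipid onto apolipoprotein B, had a median of 2.07 and a highest level of 2.22 on 30% sucrose, against 1.85 and 2.04 on 10% sucrose. All 6 rats on 30% sucrose lay above the median on 10% sucrose, and the difference was 0.26 ± 0.10 (adjusted p 0.48 by limma), or 0.16 with slide as a block. Apob itself was 0.17 ± 0.11 higher, while Lrp1, a receptor for remnants, was -0.34 ± 0.17 apart.

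No sterol gene of the lists was called. In cholesterol synthesis 10 of 25 measured (of 25) were above 0 with a median of -0.02. Sc5d and Mvk of that route differed by 0.27 ± 0.15 and -0.25 ± 0.16, and Sc5d by -0.23 with slide as a block. In the bile acid list 13 of 18 measured (of 19) were above 0 with a median of 0.08. Cyp7a1, the rate-limiting enzyme of bile acid synthesis, was too variable to place, at 0.32 ± 0.79, and Slco1a1, a bile acid and drug importer, was 0.28 ± 0.13 higher.

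In the oxidative stress list 14 of 22 measured (of 23) members were above 0 with a median of 0.09, and none was called. Gclc, the catalytic subunit of the rate-limiting enzyme of glutathione synthesis, had 2.73, 3.59 and 3.77 on 30% sucrose, against 2.09, 2.70 and 3.06 on 10% sucrose. 5 of the 6 rats on 30% sucrose exceeded every rat on 10% sucrose. The difference was 0.80 ± 0.23 (1.74-fold, 95% interval 0.33 to 1.26, adjusted p 0.42 by limma), 0.84 against slide 2, 0.71 against slide 3 and 0.26 with slide as a block.

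Gsta2, a glutathione transferase, had 6.20, 7.05 and 7.55 on 30% sucrose, against 5.78, 5.93 and 6.72 on 10% sucrose. 4 of 6 rats on 30% sucrose lay above all on 10% sucrose, and the difference of 0.88 ± 0.33 (adjusted p 0.471 by limma) had the opposite sign, -0.67, with slide as a block. Gsta5, a close relative, differed by 0.56 ± 0.25 and by -0.76 with slide as a block. The probes of these 2 transferases are identical at 14 of 60 positions without gaps, and whether other members of the family bind them was not tested. Gpx2, a glutathione peroxidase, differed by -1.89 ± 0.84. Its highest level on 10% sucrose was 1.56, in rat 2, beside a median of -4.32. Slc7a11, the cystine importer, differed by -0.45 ± 0.22.

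**Figure D3:**
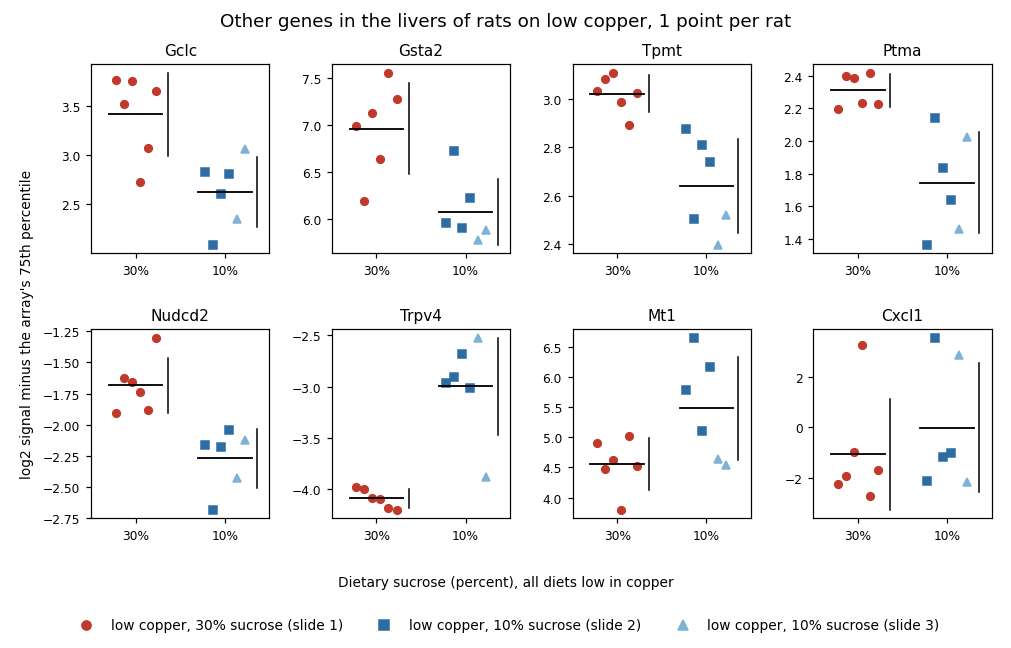
Log2 level (signal minus the array's 75th percentile) of 8 further genes, 1 point per rat, with 30% sucrose left of 10% sucrose and colour and shape giving the slide. The horizontal line is the mean and the vertical line spans 1 SD on each side (n = 6 each); Tpmt, Ptma, Nudcd2 and Trpv4 show no overlap, and in Mt1 the 2 rats of slide 3 sit with those on 30% sucrose.

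The copper and zinc list had 14 of 25 measured (of 27) members above 0 and a median of 0.03, with none called, but its metallothioneins differed between the slides. Mt1, metallothionein 1, which binds zinc and copper, had 3.80, 4.58 and 5.01 on 30% sucrose, against 4.55, 5.45 and 6.65 on 10% sucrose. The difference of -0.92 ± 0.43 (adjusted p 0.519 by limma) was -1.37 against slide 2 and -0.03 against slide 3. Mt2A, its sister gene, differed by -0.75 ± 0.54, by -1.20 against slide 2 and by 0.16 against slide 3, or by 0.29 with slide as a block.

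Cp, ceruloplasmin, differed by 0.06 ± 0.27, Sod1, the copper-zinc superoxide dismutase, by -0.06 ± 0.11 (95% interval -0.29 to 0.17), and Sod3, its secreted form, by -0.32 ± 0.16. Slc30a10, a manganese and zinc exporter, differed by 0.37 ± 0.24. In the iron and heme list 13 of 26 measured (of 27) were above 0 with a median of 0.01. Hamp, hepcidin, the hormone that blocks iron export, differed by -0.39 ± 0.28 and Cpox, of heme synthesis, by 0.40 ± 0.15.

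None of 8 measured neutrophil markers (of 14) and none of 16 measured T, B and NK cell markers (of 21) was above 0, with medians of -0.60 and -0.55. None was called in the fit of all rats. Against the rats of slide 2 alone 7 of the 16 lymphocyte markers were called lower, beside 7.77% of all genes in that setting, and against those of slide 3 alone 0. The medians were -0.82 and -0.79 against slide 2, -0.15 and 0.09 against slide 3, and -0.22 and -0.66 with slide as a block. Over all genes the median with that block was -0.16.

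The summed level of the T, B and NK cell list, in multiples of the array's 75th percentile, ran between 1.72 and 2.68 on 30% sucrose. On 10% sucrose it ran between 2.83 and 5.70 on slide 2, with 2.27 and 1.54 on slide 3, so only slide 2 lay above the rats on 30% sucrose. Fewer cells of a type and less RNA per cell cannot be told apart in whole liver. Cd4 differed by -0.39 ± 0.16 and Gzmb, granzyme B, by -0.62 ± 0.28.

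Rat 2 on 10% sucrose held the highest summed neutrophil, Kupffer cell and lymphocyte levels of the 12 livers, but not the highest interferon response. Its summed neutrophil list was 6.88 and its summed Kupffer cell and macrophage list 183, beside at most 1.93 and 70.0 in any other liver of either diet. In the Kupffer cell list 4 of 19 measured (of 20) were above 0, and the median of -0.34 was 0.03 without that rat. The neutrophil median was -0.24 without it, and the lymphocyte median -0.30. Marco, a scavenger receptor of Kupffer cells, differed by -0.77 ± 0.54, Csf1r, the receptor that macrophages need to live, by -0.41 ± 0.20, and Cd163, the haemoglobin scavenger, by -0.36 ± 0.30.

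S100a8 and S100a9, the calprotectin subunits of neutrophils, differed by -0.90 ± 0.85 and -0.89 ± 0.80, and by 1.63 and 1.16 with slide as a block. Cxcr2, the neutrophil receptor for CXC chemokines, differed by -0.90 ± 0.32 and by 0.02 with slide as a block, Camp, an antimicrobial peptide, by -0.57 ± 0.28 and Mpo, myeloperoxidase, by -0.63 ± 0.35. In the inflammatory list 4 of 28 measured (of 33) were above 0 with a median of -0.35, which was -0.10 without rat 2 on 10% sucrose and 0.19 with slide as a block. Cxcl1, the chemokine that draws neutrophils, had -2.74, -1.82 and 3.26 on 30% sucrose, against -2.17, -1.09 and 3.55 on 10% sucrose. 1 rat on 30% sucrose and 2 on 10% sucrose were high, and the difference of -1.05 ± 1.05 lay within its error and was 0.06 with slide as a block. Ccl3, a macrophage chemokine (-0.82 ± 0.45, or 0.17 with that block), Ccl5, of lymphocytes (-0.56 ± 0.33), Il10 (-0.46 ± 0.19) and Socs3, a brake on cytokine signals (-0.34 ± 0.19), were lower without passing.

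Odorant, vomeronasal and taste receptors, best known from sensory cells, formed the largest list. Of the 1394 genes of that list 388 passed the filter, and 20 of these were above 0 with a median of -0.37. At an unadjusted p under 0.05, 86 were lower and 0 higher, beside 6.88% and 2.7% of all genes. None was called, but 134 were called lower against the rats of slide 2 alone, beside 7.77% of all genes in that setting, and 0 against slide 3 alone. The median was -0.67 against slide 2, 0.15 against slide 3 and -0.61 with slide as a block. Over all genes the median with that block was -0.16.

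The summed level of these receptors was lowest in rats 4 and 6 on 30% sucrose, at 47.8 and 50.9, against 66.7 to 71.6 in the other 4 of that diet and 56.0 to 89.0 on 10% sucrose. The arrays of those 2 rats had the highest 75th percentiles of signal of the 12, 1284 and 1135. The part of array brightness in this result was not tested. Or7g23 and Or4f60b, the 2 odorant receptors with the lowest p, differed by -0.75 ± 0.18 and -1.04 ± 0.27.

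**Figure D4:**
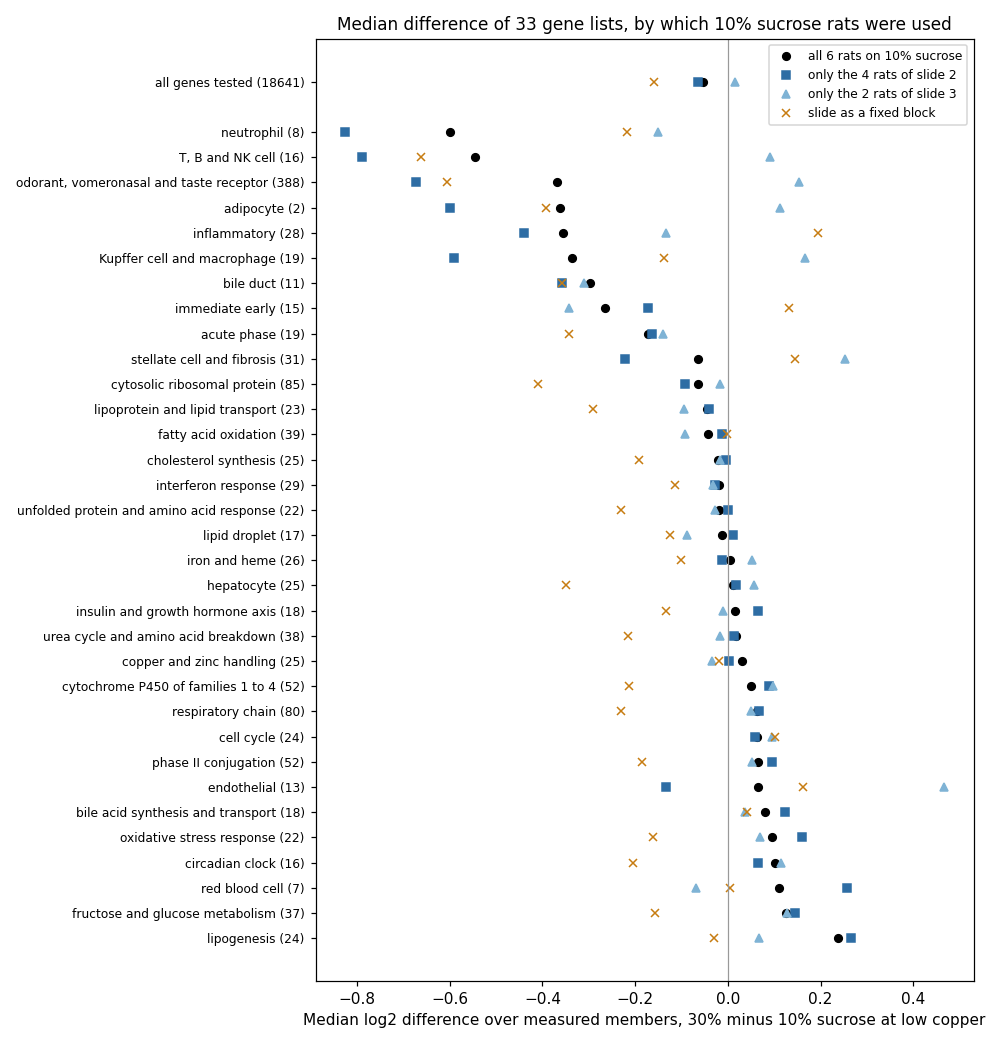
Median log2 difference, 30% minus 10% sucrose at low copper, over the measured members (number in brackets) of 33 gene lists and of all genes, against all 6 rats on 10% sucrose, the 4 of slide 2, the 2 of slide 3, and with slide as a fixed block. Lipogenesis has the highest median (0.24) and neutrophil genes the lowest (-0.60) against all 6 rats; the odorant, Kupffer cell, and T, B and NK cell lists are among those whose median changes sign between slides 2 and 3.

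The respiratory chain had 59 of 80 measured (of 81) members above 0 with a median of 0.06, including Cycs, cytochrome c (0.32 ± 0.13), and Ndufs1, of complex I (0.22 ± 0.10). With slide as a block 6 members were above 0 and the median was -0.23, beside -0.16 over all genes with that block. Cytosolic ribosomal proteins had 9 of 85 measured (of 90) above 0, with a median of -0.06 and a range of -0.20 to 0.17. That median lies near the -0.05 of all genes, of which 40.5% were above 0, and it was 0.04 when arrays were scaled by their median. In the cytochrome P450 list 31 of 52 measured (of 59) were above 0, with Cyp3a18 at 0.67 ± 0.27, the male-specific Cyp2c11 at 0.39 ± 0.22 (-0.36 with slide as a block), Cyp2b15 at -0.60 ± 0.22 and Cyp2w1 at -0.60 ± 0.23. Phase II conjugation had 37 of 52 measured (of 62) above 0 with a median of 0.06, and Sult5a1, a sulfotransferase, at -0.73 ± 0.28.

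Of the lists not described above, acute phase had 4 of 19 measured members above 0 (median -0.17), immediate early genes 2 of 15 (-0.27), bile duct 1 of 11 (-0.30), adipocyte 0 of 2 (-0.36) and the unfolded protein and amino acid response 10 of 22 (-0.02). The interferon response had 13 of 29 (-0.02), endothelial 7 of 13 (0.07), red blood cell 6 of 7 (0.11), hepatocyte 14 of 25 (0.01) and urea cycle and amino acid breakdown 21 of 38 (0.02). The circadian clock had 9 of 16 above 0 (0.10) and the insulin and growth hormone axis 10 of 18 (0.01). No member of these lists was called.

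In the stellate cell and fibrosis list 7 of 31 measured (of 36) were above 0 with a median of -0.06, which was 0.25 against the rats of slide 3. Tgfb2 differed by -0.60 ± 0.25, Acta2, smooth muscle actin of activated stellate cells, by -0.33 ± 0.17 and Col1a1, of type I collagen, by -0.36 ± 0.19. A second kept probe of Col1a1 had the other sign, 0.22. In the growth hormone list the bound for Prlr, the prolactin receptor, was 3.04-fold lower. It was well above background in 0 of 6 rats on 30% sucrose and 3 of 6 on 10% sucrose. The 95% interval of its fitted log2 difference was -4.13 to -0.13. Ghr, the growth hormone receptor, differed by 0.37 ± 0.19 and Igfbp1, a binding protein that insulin lowers, by -0.60 ± 0.35. Of cell cycle genes, 16 of 24 measured (of 31) were above 0, led by Bub1, a mitotic checkpoint kinase, at 0.66 ± 0.21, and Rrm2, of nucleotide synthesis, at 0.50 ± 0.34. Cry1, of the circadian clock, differed by 0.45 ± 0.24 (-0.05 with slide as a block), Chac1, which degrades glutathione under amino acid stress, by -0.51 ± 0.23, and Klf1, a red cell transcription factor, by -0.61 ± 0.20.

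Whether sucrose acted differently at low than at adequate copper was tested as a difference of differences. In the fit without slide, 3884 genes passed (20.8%), with the low copper difference above the adequate copper one in 361 (1.94%) and below it in 3523 (18.9%). That split depended on the scaling, with 3251 above and 2571 below when arrays were scaled by their median, 1031 and 1659 after quantile normalization, and 782 and 1621 in the authors' table. The median over all genes of this quantity was -0.10, and 0.21 with median scaling. With slide as a fixed block 10 genes passed (0.0536%), all below. Without the 2 low copper rats of slide 3, 4898 passed, and without the 4 rats of slide 2 none passed, though 2670 had an unadjusted p under 0.05.

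The slides enter both sides of this test. The adequate copper rats on 30% sucrose lay on slides 1 and 2, and those on 10% sucrose all lay on slide 3. At adequate copper 3426 genes (18.4%) were higher and 462 (2.48%) lower on 30% sucrose. Across the 18641 genes the differences at low and adequate copper correlated at -0.55 in the fit without slide, where they share no rat but share slides. With slide as a block the correlation was 0.26. There both differences are computed in part from the same slide 2 rats, of both diets on that slide, with the same signs. A positive value is thus partly built into that fit. Genes are not independent replicates, and both values are descriptions only.

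**Figure D5:**
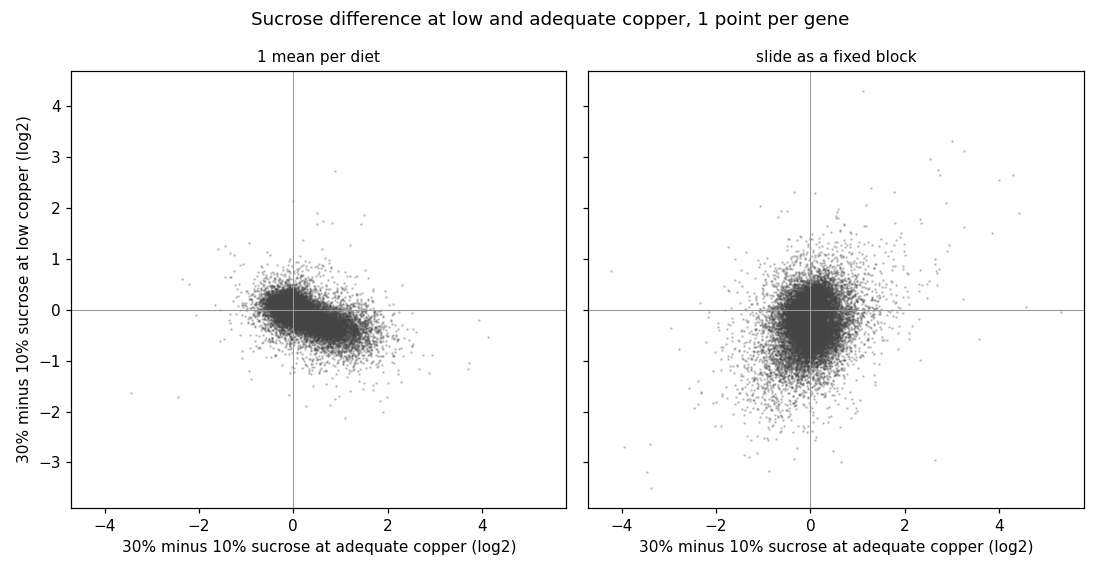
Log2 difference of 30% minus 10% sucrose at low copper (vertical axis) against the same at adequate copper (horizontal axis), 1 point per gene, with 1 mean per diet on the left and slide as a fixed block on the right. The cloud slopes down on the left (correlation -0.55) and up on the right (0.26).

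Of the genes with the lowest p in this test, Mmp25, a membrane-anchored metalloproteinase of leukocytes, also passed with slide as a block. It had -4.79, -4.25 and -3.87 on 30% sucrose at low copper, against -4.30, -3.92 and -3.64 on 10% sucrose. Sucrose differed there by -0.35 ± 0.15 and at adequate copper by 1.38, which made -1.74 ± 0.22 (adjusted p 0.00062 by limma), or -1.79 (adjusted p 0.0397) with slide as a block. Klf1 passed both ways as well, at -1.50 and -2.10 with slide as a block. It was well above background in 2 of 6 rats on 30% sucrose and 4 of 6 on 10% sucrose at low copper. Castor2, Ankrd29, Myl3, Or2y14, LOC307727, Ppp1r1b and 2 probes without a gene name also passed with slide as a block, and 9 of the 10 were among the 3884. These were named after their values were seen.

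In the other direction Thoc7, of RNA export, had 0.38, 0.65 and 0.80 on 30% sucrose at low copper, against 0.12, 0.37 and 0.58 on 10% sucrose. Its sucrose difference was 0.26 at low and -0.41 at adequate copper, 0.67 ± 0.14 apart (adjusted p 0.00304 by limma). With slide as a block it was 0.58 and did not pass (adjusted p 0.27). Pcsk7, a proprotein convertase (0.64), and the array entries LOC690226 (2.01) and TC604083 (0.81) were also above. None of the 24 lipogenesis genes passed this test, and 5 of 37 fructose and glucose genes were above and 1 below, beside 1.94% and 18.9% of all genes, among them Gys2 (0.55) and Ppp1r3b (1.05). All of these lost the call with slide as a block. 8 of 16 lymphocyte markers, 5 of 8 neutrophil markers, 7 of 28 inflammatory genes and 279 of 388 odorant and related receptors were below, beside 18.9% of all genes, a share the inflammatory count lies near, and 1 receptor (Or2y14) remained with slide as a block.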

How the data were processed

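Liver RNA of 24 rats was labelled with Cy3 and hybridised to single-colour 60-base Agilent arrays, read by Agilent Feature Extraction 10.7.3.1 per the file headers. The deposited intensity values are the scanner's processed signals, background-corrected by that program per the file headers. The authors' series table holds a score per probe, which on comparison with the scanner values was a quantile-normalised, centred and scaled intensity. Log2 signals were scaled to each array's 75th percentile, after outlier-flagged spots (0.652%) and control spots were left out. Spots were averaged per probe, probes well above background on at least 6 of 24 arrays were kept, and the brightest stood for its gene, leaving 18641 genes. Limma 3.58.1 in R 4.3.3 fitted 4 diet means on all 24 arrays, with Benjamini-Hochberg adjustment at 0.05, and was tested on simulated data. Named genes are the 12 with the smallest p in each direction (none passed), 5 in each direction of the difference of differences, up to 4 per list and a fixed set. The members, the 33 lists and the tests were chosen with earlier results of these data known. Some genes of the naming rule are not reported here.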

Additional observations from a re-analysis of the deposited data

Results flagged for a closer look

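A rat that stood far from the other 5 of its diet was looked for in 232 groups of 6 levels (Dixon's test), of which chance flags about 1 in 20, and 13 stood out. On 30% sucrose these were rat 4 for Cxcl1 at 3.26, beside -0.98 in the next rat, and rat 3 for Pck1 at 4.53, beside 5.11. On 10% sucrose 5 of the 11 lay in rat 2, which was high for Cp (8.23) and Marco (0.53) and low for LOC690226 (0.32), Hamp (6.02) and Cyp2c11 (6.96). Rat 6 on 10% sucrose was high for A_64_P155364 (-1.03) and low for Trpv4 (-3.88) and Acta2 (-2.27). The others on 10% sucrose were rat 3 for ENSRNOT00000041800 (-3.48), rat 1 for Cyp7a1 (-6.61) and rat 4 for Bub1 (-4.73).

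For 52 of the genes named, whose 2 diets gave the 232 groups above, the sucrose difference at low copper differed from that at adequate copper. The test was limma's on the difference of differences, in the fit without slide. Of all 18641 genes 3884 passed it (20.8%), and their split above and below 0 depended on the scaling, as given above. With slide as a block 2 of them passed, Mmp25 (-1.74 without the block) and Klf1 (-1.50). The lead genes and most list members were picked by the p of the low copper difference, which enters the difference of differences. Thoc7, Pcsk7, TC604083, LOC690226, Mmp25, Prm3, FM135825, 1700013G24Rikl and A_64_P140542 were picked by the p of this test itself. The sign and call of such genes are thus partly fixed by how they were picked and are no independent support. The value was above 0 for Nudcd2 (0.70), A_64_P132657 (0.56), C7h8orf76 (0.65), Ptma (0.54), Tpgs2 (0.46), Thoc7 (0.67), Pcsk7 (0.64), TC604083 (0.81) and LOC690226 (2.01). It was also above 0 for Gys2 (0.55), Ppp1r3b (1.05), Cpox (0.73), Ghr (0.79) and Cyp3a18 (1.14).

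It was below 0 for the lead genes A_64_P061758 (-1.92), A_44_P929530 (-1.58), Ctsll3 (-3.25), C9h6orf141 (-2.42), Arrdc4 (-1.23), Foxd3 (-2.79), Sncaip (-1.77), Lacc1 (-1.24), Sucnr1 (-1.48), Ermap (-1.58) and A_64_P090994 (-1.95). The same holds for Prm3 (-1.51), FM135825 (-1.49), 1700013G24Rikl (-2.03) and A_64_P140542 (-1.83). Among immune genes it was below 0 for Cxcl1 (-4.76), S100a8 (-3.83), S100a9 (-3.64), Il10 (-1.02), Ccl3 (-2.02), Socs3 (-1.01), Cxcr2 (-2.80), Camp (-1.54), Csf1r (-1.10) and Cd4 (-0.92). The rest were Fitm1 (-1.40), Slc7a11 (-1.89), Chac1 (-1.56), Tgfb2 (-1.85), Acta2 (-1.03), Col1a1 (-0.92), Igfbp1 (-1.84), Cyp2w1 (-1.50), Cyp2b15 (-0.97), Or7g23 (-1.48) and Or4f60b (-2.34).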

How the results depend on the processing

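Between 30% and 10% sucrose at low copper no gene passed under any of the scalings, background corrections, filters or probe rules tried. With slide as a fixed block 6 genes passed, all lower, and without the 2 rats on 10% sucrose of slide 3 1503 passed. Leaving out 1 rat at a time gave 0 to 41 genes. Members of the lists called numbered 0 to 2 when 1 rat was left out, and 152 without the rats of slide 3. Of those 152, 134 were among the 388 odorant, vomeronasal and taste receptors and 7 among the 16 T, B and NK cell markers. No other list had more than 2. In that setting 0.29% of all genes were called higher and 7.77% lower. The replicate numbers of the labels do not pair the rats: the deviations of same-numbered rats correlated between -0.13 and 0.279, and only rat 6 matched its own number best. With the replicate block 0 genes passed at low copper and 3925 in the difference of differences. That test gave 3054 to 4828 genes when 1 low copper rat was left out, 2403 in the authors' table, 2294 with all 24 arrays above background, 1808 with slide as a random block, 114 for a change of at least 1.5 times, 10 with slide as a fixed block and 0 without the low copper rats of slide 2. No array setting separates slide from diet at low copper, 6 rats a diet limit the precision, and many of the lower genes lie near background.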
